A study of Homo sapiens with 18 samples.

Results

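The genes described here handle retinoic acid, the active form of vitamin A, in 3 pairs of ovarian cancer cell lines. The set of 9 genes (ALDH1A1, ALDH1A2, ALDH1A3, CRABP1, CRABP2, RARA, RARB, RARG and RARRES1) was chosen by name and on measured values of these same libraries, because ALDH1A1 was high in CP70 and CRABP2 was higher in all 3 resistant lines. Of these, 7 were among the 12853 genes of the expression table. ALDH1A2 and CRABP1 were not listed in it and were not analysed here. The values that guided the choice are therefore given as a description without a test, and tests are given for the other members.

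RNA-seq was analysed for 18 libraries, 3 of each of 6 lines. A2780 is a platinum-sensitive line, labelled as endometrial or ovarian cancer, and CP70 is its platinum-resistant derivative, made in vitro. PEO1 (sensitive) and PEO4 (resistant) came from 1 patient. Both were taken after platinum-based chemotherapy had been given, PEO1 before and PEO4 after resistance appeared in the clinic. PEA1 (sensitive) and PEA2 (resistant) came from the ascites of another patient, before platinum therapy and at relapse. The question was which genes are expressed differently in a resistant line and its sensitive partner, in the A2780 pair, the PEO pair and the PEA pair. All lines were grown in RPMI-1640 medium with fetal bovine serum, and the labels give no drug treatment of the cultures that were sequenced. Each line stands for 1 derivation, so a difference within a pair belongs to those 2 lines. The labels do not say that the 3 libraries of a line came from separate cultures, so p-values measure only the spread between these libraries, which may be technical.

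Retinol enters cells from serum, is oxidised to retinaldehyde by retinol dehydrogenases, and is then oxidised irreversibly to retinoic acid by the retinaldehyde dehydrogenases of the ALDH1A family. CRABP2, a small cytosolic binding protein, carries retinoic acid to the nucleus, where the receptors RARA, RARB and RARG pair with RXR proteins and regulate genes through paired copies of a short half-site. ALDH1A1 is also widely used as a marker of stem-like and drug-tolerant cells in ovarian cancer, and RARB and CYP26A1 are textbook targets of retinoic acid.

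Promoter sequences are shown for the 2 genes that guided the choice, ALDH1A1 and CRABP2, and for the windows of RARB and CYP26A1 that held a receptor half-site repeat. Each is the 250 bases before a RefSeq transcription start on GRCh38.p14, written 5′ to 3′ on the strand of the gene. Capitals mark a CCAAT box or a pair of half-sites spaced by 5 bases (a direct repeat called DR5). A half-site was AGGTCA, the close form AGTTCA, the form beginning with G as GGGTCA or the fourth form GGTTCA. They were searched on both strands as direct repeats spaced by 1, 2 or 5 bases, and CCAAT was searched on both strands as well.
ALDH1A1: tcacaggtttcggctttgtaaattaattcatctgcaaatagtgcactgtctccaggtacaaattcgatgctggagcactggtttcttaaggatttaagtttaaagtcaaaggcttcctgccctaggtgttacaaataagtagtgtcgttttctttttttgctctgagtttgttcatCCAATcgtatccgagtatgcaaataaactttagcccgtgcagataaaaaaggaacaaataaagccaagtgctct
CRABP2: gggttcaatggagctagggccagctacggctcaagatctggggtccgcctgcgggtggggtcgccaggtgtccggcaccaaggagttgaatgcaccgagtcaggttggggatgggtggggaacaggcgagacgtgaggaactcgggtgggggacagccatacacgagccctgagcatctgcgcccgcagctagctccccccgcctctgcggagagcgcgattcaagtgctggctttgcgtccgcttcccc
RARB: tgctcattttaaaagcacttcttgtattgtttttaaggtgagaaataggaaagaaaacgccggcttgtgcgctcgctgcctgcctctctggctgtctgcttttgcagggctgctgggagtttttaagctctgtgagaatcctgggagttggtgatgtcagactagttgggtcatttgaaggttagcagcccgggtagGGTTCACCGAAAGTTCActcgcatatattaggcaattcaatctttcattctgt
CYP26A1: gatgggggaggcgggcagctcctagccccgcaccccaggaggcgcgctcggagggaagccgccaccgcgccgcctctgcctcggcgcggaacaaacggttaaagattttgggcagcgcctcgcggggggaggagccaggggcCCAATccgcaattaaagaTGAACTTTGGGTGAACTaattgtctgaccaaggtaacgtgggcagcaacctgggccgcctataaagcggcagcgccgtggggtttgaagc

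The ALDH1A1 window (chr9:72953054-72953303, minus strand) held a CCAAT box at bases 74 to 70 before the start and no half-site repeat. The CRABP2 window (chr1:156705785-156706034, minus strand) held none of the motifs. Of 4 RARB windows, 1 (chr3:25428013-25428262, plus strand) held a DR5 at bases 53 to 37 before the start. CYP26A1, which encodes the main enzyme of retinoic acid breakdown, held a DR5 on the opposite strand at bases 90 to 74 before the start in 1 of 2 windows (chr10:93073643-93073892, plus strand), with a CCAAT box in capitals before it. A DR5 of these half-sites was found in 26 of 35116 promoter windows (0.0740%) and a CCAAT box in 11240 (32.0%). Among the 9 members, 1 of 15 windows held a DR5 and 4 held CCAAT. These matches describe the letters of the windows and say nothing of binding in these cells.

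Depth ranged from 1344098 to 7067336 reads on listed genes per library, and PEA1 was shallowest at 1344098 to 1670866. A level of 3 reads in a library, the limit that a count of 0 allows, stood for 0.452 to 2.18 CPM (reads per 1000000 reads counted, after the authors' scaling), and these limits cover counting error only. The lines were also compared with serous ovarian epithelial markers (PAX8, WT1, MUC16, EPCAM, KRT7, KRT8 and KRT18). In A2780 6 of the 7 were at most at 3 reads in every library, with PAX8, WT1 and KRT7 at 0, and the summed marker level was 1.68 to 2.84 CPM. CP70 held 90.3 to 96.0 CPM, with PAX8, WT1 and KRT7 at most at 3 reads. The sum was 427 to 586 CPM in PEA1, 2841 to 3165 in PEA2, 6257 to 7268 in PEO1 and 4401 to 5987 in PEO4. The markers PAX8, WT1 and KRT7 were thus absent or at the floor in A2780 and CP70, and KRT7 had at most 3 reads in PEA1. EPCAM, KRT8 and KRT18 were higher in CP70, without overlap. They had 10, 3 and 9 pooled reads in A2780 and 222, 182 and 906 in CP70. MUC16 had 1 pooled read in A2780 and 5 in CP70, with overlapping libraries.

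ALDH1A1 was high in CP70 and at or near 0 in the other 5 lines. ALDH1A1 (ENSG00000165092, GRCh37 chr9:75515587-75695358, minus strand) encodes the first-described cytosolic retinaldehyde dehydrogenase. The 3 CP70 libraries held 6423, 4573 and 4068 reads, and the 3 A2780 libraries held 2, 2 and 3. On the log2 CPM scale, with 0.5 reads added, CP70 measured 10.04, 10.08 and 10.06 and A2780 measured -0.52, -0.63 and 0.65. The 2 lines lay far apart, and the 3 CP70 libraries were nearly equal. The pooled reads gave a ratio of 1476, with a 95% counting interval of 716 to 3671 by the exact Clopper-Pearson method, and the fitted difference was 10.23. Some markers of other cell types also differed in this pair. The collagen gene COL1A2 had 2, 1 and 0 reads in A2780 and 95, 61 and 50 in CP70, and DCN had 12, 4 and 6 against 150, 105 and 80. COL1A1 did not rise, with 63 pooled reads in A2780, 66 in CP70 and overlapping libraries (mean CPM ratio 0.651). Together the 3 fibroblast markers summed to 4.64 to 12.5 CPM in A2780 and 38.1 to 45.4 CPM in CP70. The part of these and the epithelial markers in the ALDH1A1 and RARB values was not tested. No ALDH1A1 read was found in PEA1, PEA2 or PEO1, and 1 read was found in 1 of the 3 PEO4 libraries. No fold can be given for the patient-derived pairs, and levels under the 3-read limit were not detectable at this depth. In these bulk samples, fewer cells that express a gene and less RNA per cell cannot be told apart.

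ALDH1A3 was high in 3 of the 5 lines with little or no ALDH1A1, and it moved in opposite directions in the 2 patient-derived pairs. ALDH1A3 (ENSG00000184254, GRCh37 chr15:101417919-101456831, plus strand) encodes another retinaldehyde dehydrogenase of the same family. In the PEA pair its log2 CPM was 4.42, 2.90 and 3.41 in PEA1 and 10.08, 9.99 and 10.09 in PEA2. Those libraries did not overlap, and mean CPM was 82.9-fold higher in PEA2 (log2FC 6.48 ± 0.53 SE, limma FDR 2.34e-09). In the PEO pair it was 10.70, 10.70 and 10.74 in PEO1 and 8.49, 8.28 and 8.46 in PEO4. ALDH1A3 fell in PEO4, with mean CPM 4.93-fold lower (log2FC -2.30 ± 0.53 SE, limma FDR 0.00147). The difference between these 2 changes was -8.78 (limma interaction FDR 6.49e-09). In the A2780 pair the libraries held 0, 3 and 3 reads in A2780 and 37, 23 and 21 in CP70. ALDH1A3 rose there from that floor (log2FC 3.31, limma FDR 3.55e-05), with a pooled ratio of 9.26 and a 95% counting interval of 4.07 to 26.0. The log2FC was 2.18 with quantile normalization.

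The 6 lines stood in the order PEO1, PEA2, PEO4, PEA1, CP70 and A2780 for ALDH1A3, and no neighbours in that order overlapped. The rise in PEA2 came beside a higher sum of the epithelial markers given above. EPCAM, MUC16, KRT7, KRT8 and KRT18 were higher in PEA2, but PAX8 (0.983-fold) and WT1 (1.26-fold) had overlapping libraries. The mesenchymal marker VIM was 2299 to 2653 CPM in PEA1 and 107 to 117 CPM in PEA2. The leukocyte marker PTPRC was at 0 reads in PEA1 and at 46 to 70 reads in PEA2, and the fibroblast-type collagen COL1A1 was at 513 to 649 reads in PEA1 while COL1A2 and DCN were at 0. In the PEO pair, KRT7 had 6137, 5589 and 12179 reads in PEO1 and 1082, 905 and 1008 in PEO4. KRT8 and KRT18 were 1.26-fold and 1.29-fold lower in PEO4 without overlap. WT1, PAX8 and EPCAM were 2.72-fold, 1.57-fold and 1.37-fold higher there, also without overlap, and the MUC16 libraries overlapped. VIM was 10.1 to 16.8 CPM in PEO1 and 39.4 to 44.6 CPM in PEO4. COL1A2 had 1, 1 and 2 reads in PEO1 and 22, 30 and 23 in PEO4, while DCN had at most 1 read and the COL1A1 libraries overlapped. The part of these markers in the ALDH1A3 changes was not tested. The ALDH1A3 span overlaps ALDH1A3-AS1, a gene on the opposite strand that is also in the table. The libraries were strand-specific, but the strand setting of the read counting is not given in the sources used here, so reads of the 2 genes may not be told apart.

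Per length, ALDH1A1 in CP70 and ALDH1A3 in PEO1 reached similar levels. The exon lengths, 2840 bases for ALDH1A1 and 5335 for ALDH1A3, came from the GRCh37 annotation. Before division by length, ALDH1A1 in CP70 was 1052 to 1084 CPM and ALDH1A3 in PEO1 was 1663 to 1715 CPM. The order of the 2 genes thus depends on the lengths used. ALDH1A1 in CP70 measured 376.3 ± 5.58 RPKM (CPM per kilobase of exon, SD, n = 3), and ALDH1A3 measured 315.1 ± 5.46 in PEO1, 199.7 ± 7.41 in PEA2 and 63.9 ± 4.79 in PEO4. ALDH1A3 was 1.06 ± 0.0626 in CP70, so ALDH1A1 made up 99.7% of the summed level of the 2 genes in each CP70 library. In PEA1 and A2780 the sum stayed at 2.41 ± 1.37 and 0.416 ± 0.274. The resistant line thus had the higher sum in the PEA pair, and the sensitive line had it in the PEO pair. CP70 also had a higher sum than A2780, but nearly all of it was ALDH1A1, whose high level in CP70 guided the choice of genes. That direction is therefore given as a description only. The plot of per-length levels shows both enzymes by line, together with CRABP2.

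**Figure D1:**
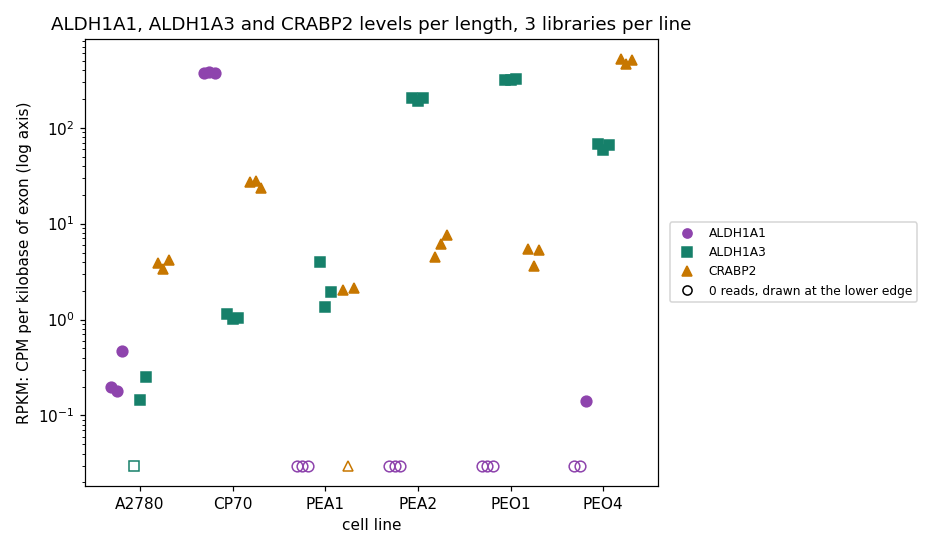
RPKM (CPM per kilobase of exon, log axis) for ALDH1A1, ALDH1A3 and CRABP2 in each of the 3 libraries of the 6 cell lines, with open symbols at the lower edge for 0 reads. ALDH1A1 lies near 376.3 in CP70 and ALDH1A3 near 315.1 in PEO1, and CRABP2 is highest in PEO4.

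CRABP2 (ENSG00000143320, GRCh37 chr1:156669398-156675608, minus strand) was higher in the resistant line of every pair, the pattern on which it was selected, but by very different amounts. In the A2780 pair its log2 CPM was 2.12, 1.90 and 2.23 in A2780 and 4.89, 4.92 and 4.69 in CP70. In the PEO pair it was 2.59, 2.04 and 2.54 in PEO1 and 9.13, 8.96 and 9.09 in PEO4. In the PEA pair it was 1.35, -1.49 and 1.37 in PEA1 and 2.34, 2.76 and 3.08 in PEA2. The libraries did not overlap in any pair, and mean CPM was 6.95-fold, 103-fold and 4.39-fold higher in CP70, PEO4 and PEA2. The fitted log2 differences were 2.75, 6.67 and 2.32.

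The PEA difference rested on few reads, with 3, 0 and 4 in PEA1 and 9, 23 and 18 in PEA2. It was 1.37 without PEA1 replicate 2, the library at 0 reads, and 1.48 when 2 reads in place of 0.5 were added to each count. In reads the A2780 pair held 15, 14 and 10 against 180, 127 and 98, and the PEO pair held 18, 11 and 38 against 1622, 1490 and 1346. Among the 6 lines PEO4 stood first and CP70 second, apart from each other and from the rest. PEA2, PEO1 and A2780 overlapped in sequence, and PEA1 was lowest. Per length CRABP2 reached 494.3 ± 30.9 RPKM (SD, n = 3) in PEO4, against 26.3 ± 2.17 in CP70 and 6.05 ± 1.59 in PEA2. Thus PEO4 held much CRABP2 and less ALDH1A3 than PEO1, while CP70 held much ALDH1A1 and a middle level of CRABP2.

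**Figure D2:**
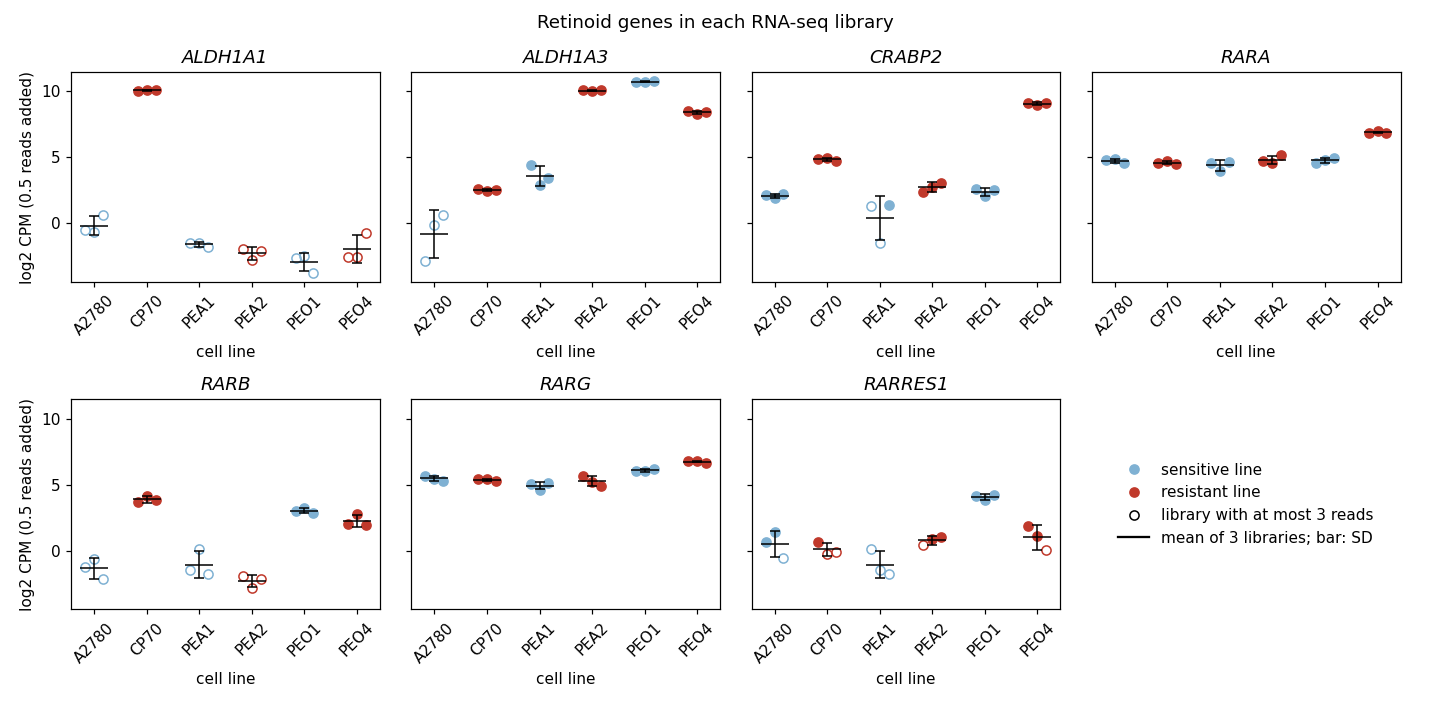
Log2 CPM (0.5 reads added by the authors) of the 7 retinoid genes in each library, by cell line, with the mean and SD of the 3 libraries. Open points are libraries with at most 3 reads, and ALDH1A1 is filled only in CP70, near 10.06.

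The retinoic acid receptors did not all change together. RARB rose in the A2780 pair, and RARA and RARG both rose in the PEO pair. RARB (ENSG00000077092, GRCh37 chr3:24729378-25639423, plus strand), the receptor that is itself induced by retinoic acid, had 1, 2 and 0 reads in A2780 and 76, 75 and 54 in CP70. RARB rose in CP70, with a pooled ratio of 46.9 and a 95% counting interval of 15.8 to 229 (log2FC 5.23 ± 0.49 SE, limma FDR 2.83e-08). The CP70 libraries measured 3.65, 4.16 and 3.84 log2 CPM, the highest of the 6 lines, and the A2780 libraries were at the floor. PEA1 and PEA2 had at most 1 RARB read in any library, so no fold can be given. In the PEO pair RARB measured 3.0, 3.19 and 2.81 in PEO1 and 1.99, 2.77 and 1.95 in PEO4. These libraries did not overlap, yet the difference of -0.76 did not pass the test (limma FDR 0.231). With the PEO pair fitted alone the FDR was 0.0492.

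RARA (ENSG00000131759, GRCh37 chr17:38465432-38513895, plus strand), the broadly expressed receptor, measured 4.56, 4.81 and 4.96 in PEO1 and 6.82, 6.95 and 6.87 in PEO4. RARA rose 4.28-fold in PEO4 (log2FC 2.10 ± 0.19 SE, limma FDR 2.44e-08). PEO4 stood apart from the other 5 lines, whose means of 4.39 to 4.83 overlapped in sequence. In the PEA pair, RARA measured 4.56, 3.94 and 4.68 in PEA1 and 4.75, 4.57 and 5.17 in PEA2. Those libraries overlapped, and the log2FC of 0.44 passed only narrowly (limma FDR 0.0484). It was lost in 10 of 14 alternative fits. These were 7 of the 8 that kept all libraries, down to 0.19 with plain library sizes (limma FDR 0.377), and the fits without PEA1 replicate 2 (0.21, limma FDR 0.312), PEA2 replicate 3 (0.27, limma FDR 0.246) or PEA2 replicate 1 (0.48, limma FDR 0.0592). In the A2780 pair RARA was 4.80, 4.86 and 4.58 against 4.58, 4.71 and 4.49, with overlapping libraries and a difference of -0.15 that did not pass (limma FDR 0.540).

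RARG (ENSG00000172819, GRCh37 chr12:53604351-53626764, minus strand), a receptor known from epithelia and skin, measured 6.0, 6.05 and 6.18 in PEO1 and 6.76, 6.76 and 6.67 in PEO4. RARG rose 1.57-fold there (log2FC 0.65 ± 0.16 SE, limma FDR 0.00273), without overlap. It did not pass in the A2780 pair (-0.10, limma FDR 0.646) or the PEA pair (0.33, limma FDR 0.0829), where the libraries overlapped, although without PEA2 replicate 3 the PEA value was 0.50 (limma FDR 0.0116). Per length, RARG was above RARA in A2780, CP70 and PEO1 without overlap (13.1 ± 0.855 against 5.79 ± 0.799 RPKM in PEO1). The order was turned in PEO4, with RARA at 24.8 ± 1.21 and RARG at 20.6 ± 0.745, again without overlap. In PEA1 and PEA2 the 2 receptors overlapped. RARB was the lowest receptor in each line, at most 1.57 ± 0.287, in CP70.

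RARRES1, a membrane protein gene named for its induction by a retinoid, was measured well only in PEO1. RARRES1 (ENSG00000118849, GRCh37 chr3:158414681-158450278, minus strand) had 53, 39 and 121 reads in PEO1 and 10, 6 and 2 in PEO4. RARRES1 fell in PEO4, with mean CPM 7.89-fold lower (log2FC -3.05 ± 0.56 SE, limma FDR 0.000197) and no overlap. In the A2780 pair the libraries overlapped at 5, 10 and 1 reads against 9, 3 and 3 (log2FC -0.41, limma FDR 0.593). In the PEA pair 1 read in PEA1 stood against 12 in PEA2, a pooled ratio of 7.20 with a 95% counting interval of 1.06 to 308. That change passed the test (log2FC 1.84, limma FDR 0.00805) but not with 2 reads added to each count (0.64, limma FDR 0.127). The RARRES1 span overlaps MFSD1 on the opposite strand, so a share of its few reads may belong to that gene.

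Counted over the members open to a test, 2 of 5 rose in the A2780 pair, and 0 fell, where 22.2% of all genes rose and 17.7% fell at an FDR below 0.05. In the PEA pair 3 of 4 rose and 0 fell, where 32.5% of all genes rose and 29.4% fell. In the PEO pair 2 of 5 rose and 2 fell, where 19.6% of all genes rose and 21.9% fell. With the study's added threshold of |log2FC| above 2, the members called were 2, 1 and 3, where 9.06%, 14.1% and 6.22% of all genes were called. With so few members, these counts are not read as a result about the group. Of 5 members, the change differed between the PEA and A2780 pairs for 3 (57.5% of all genes), between the PEO and A2780 pairs for 5 (47.5%) and between the PEO and PEA pairs for 3 (58.7%), by the limma interaction at an FDR below 0.05. RARB, with at most 1 read per library in PEA1 and PEA2, is 1 of those 5. Without it, the counts against the PEA pair were 2 of 4 (A2780) and 3 of 4 (PEO). No tested member rose or fell in all 3 pairs.

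**Figure D3:**
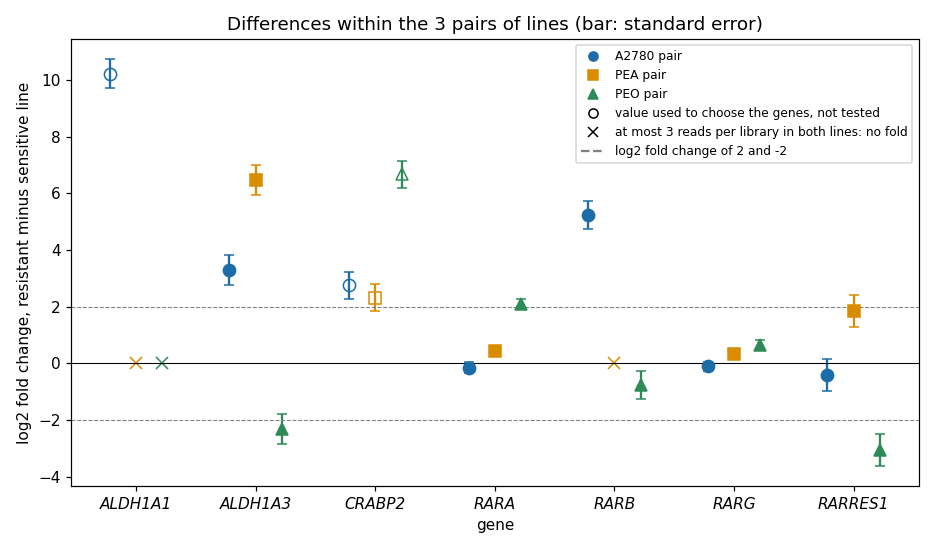
Log2 fold change with its standard error (resistant minus sensitive line) of each retinoid gene in the 3 pairs. Open symbols were used to choose the genes and were not tested, crosses are genes with at most 3 reads per library in both lines, and ALDH1A3 lies at 6.48 for PEA2 against PEA1 and at -2.30 for PEO4 against PEO1.

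The wider pathway was read from 6 lists holding 68 distinct genes, of which 46 were in the table. Genes with more than 3 reads in a library of either line of a pair could be tested. Of those, 12 rose and 9 fell among 40 in the A2780 pair, 17 rose and 17 fell among 42 in the PEA pair, and 16 rose and 11 fell among 46 in the PEO pair. Over all genes above 3 reads in a line, 23.5% rose and 18.3% fell in the A2780 pair, 33.6% rose and 29.7% fell in the PEA pair, and 20.0% rose and 22.3% fell in the PEO pair. The median log2FC of the 46 genes was -0.17, -0.24 and 0.05, against -0.02, 0.01 and -0.02 over all genes. With genes at the floor set to their bound and undetected genes left out, the list medians were -0.16, -0.10 and 0.05.

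Among genes of retinol uptake and storage, 0 rose and 1 fell of 3 in the A2780 pair, 3 rose and 1 fell of 4 in the PEA pair, and 1 rose and 3 fell of 5 in the PEO pair. STRA6, the membrane receptor that takes up retinol from its plasma binding protein, had 98, 77 and 44 reads in A2780 and 1, 0 and 0 in CP70. STRA6 fell there with a pooled ratio of 319-fold lower and a 95% counting interval of 56.7 to 12670 (log2FC -7.15, limma FDR 4.43e-12). It also fell in PEA2, a call that was lost without PEA2 replicate 3 (-1.09, limma FDR 0.0171), and in PEO4, with 36, 43 and 129 reads against 4, 6 and 7 (-2.82, limma FDR 5.13e-06). Of the uptake genes it was the one lower in all 3 resistant lines. RBP7, an intracellular retinol-binding protein, fell in PEO4 from 141, 113 and 184 reads to 3, 4 and 2 (-4.93, limma FDR 3.07e-08).

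Among the 8 retinol and retinaldehyde enzymes in the table, 2 rose and 0 fell of 7 in the A2780 pair, 4 rose and 2 fell of 8 in the PEA pair, and 1 rose and 1 fell of 8 in the PEO pair. DHRS3, which reduces retinaldehyde back to retinol and is itself responsive to retinoic acid, had 10, 10 and 4 reads in A2780 and 395, 219 and 202 in CP70. DHRS3 rose 23.7-fold there (log2FC 4.48 ± 0.19 SE, limma FDR 1.04e-13) and 5.33-fold in PEA2 (2.42, limma FDR 1.04e-09). In the PEO pair its log2FC of -0.36 did not pass (limma FDR 0.139). RDH10, the dehydrogenase that makes retinaldehyde, rose 3.39-fold in CP70 (log2FC 1.76, limma FDR 1.01e-10) and 7.89-fold in PEA2 (2.97, limma FDR 5.16e-14), and it fell slightly in PEO4 (-0.38, limma FDR 0.0109), a call that was lost without PEO1 replicate 1 or PEO4 replicate 1. BCO1, the enzyme that cleaves beta-carotene, fell in PEA2 from 22, 22 and 34 reads to 3, 9 and 1 (-3.51, limma FDR 3.03e-05). It rose in PEO4 on very few reads, 1, 0 and 0 against 4, 4 and 5 (3.21, limma FDR 0.00016), and the value was 1.71 with quantile normalization and 1.93 with 2 reads added.

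For retinoic acid breakdown and the alternative carrier FABP5, 1 rose and 0 fell of 3 in the A2780 pair, 1 gene open to a test fell in the PEA pair, and 0 of 3 passed in the PEO pair. For PEO4, 1 gene fell in 4 alternative fits, with the pair fitted alone, quantile normalization, 2 reads added or voom weights. The fall of FABP5 in PEA2 was lost with the PEA pair fitted alone, without the variance trend, and without PEA1 replicate 1, PEA1 replicate 2 or PEA2 replicate 2. Without A2780 replicate 1, 2 genes rose in the A2780 pair. CYP26A1, whose promoter window is shown above, had 2, 6 and 5 reads in A2780 and 75, 49 and 61 in CP70. CYP26A1 rose 9.20-fold in CP70 (log2FC 3.22 ± 0.61 SE, limma FDR 0.000239), and the log2FC was 2.0 with quantile normalization. It had at most 4 reads in any library of the other 4 lines. CP70 thus had higher RARB, CYP26A1 and DHRS3 beside high ALDH1A1, and less STRA6, than A2780. Of the retinoic acid-responsive genes listed below, 5 rose and 3 fell of 10 in this pair. MEIS1 and MEIS2 of that list were 96.5-fold and 2.28-fold lower in CP70 by mean CPM. The part of retinoic acid in these values was not tested. Of 58 member and list genes with a promoter window, RARB and CYP26A1 were the 2 with a DR5.

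Among 9 receptor partners and coregulators, 4 rose and 1 fell in the A2780 pair, 4 rose and 3 fell in the PEA pair, and 5 rose and 1 fell in the PEO pair. The 4 that rose in the PEA pair became 2 without PEA1 replicate 2, PEA2 replicate 1 or PEA2 replicate 3. None of these passed |log2FC| above 2. The 2 genes given here were chosen after their values were seen. RXRB, a partner of the receptors, rose in PEO4 (log2FC 1.27, limma FDR 3.59e-05), beside RARA and RARG, and in PEA2 (0.54, limma FDR 0.0266). Its value of -0.45 in the A2780 pair did not pass (limma FDR 0.0878). NCOA3, a coactivator, measured 5.18, 5.13 and 4.89 in A2780 and 6.41, 6.49 and 6.55 in CP70 (1.42, limma FDR 2.28e-10). NCOA3 also rose in PEA2 (0.94, limma FDR 6.7e-08) and PEO4 (0.62, limma FDR 3.02e-05).

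Of 13 retinoic acid-responsive genes in the table, 5 rose and 3 fell of 10 in the A2780 pair, 7 rose and 3 fell of 12 in the PEA pair, and 5 rose and 4 fell of 13 in the PEO pair. Their median log2FC was 0.00, 1.07 and 0.19, or 0.42, 1.24 and 0.19 with floor genes at their bound. STRA6, DHRS3 and CYP26A1 belong to this list too. MEIS1, a homeobox factor, fell in CP70 from 255, 400 and 183 reads to 4, 4 and 4 (log2FC -6.44, limma FDR 6.11e-16). GPRC5A, an orphan receptor known for induction by retinoic acid, rose in PEA2 from 18, 8 and 11 reads to 3196, 5178 and 3492, a 191-fold difference (7.62, limma FDR 9.93e-10). Like ALDH1A3, GPRC5A rose in CP70 from the floor (3.27, limma FDR 0.000131) and fell in PEO4 (-2.0, limma FDR 0.00957).

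TGM2, tissue transglutaminase, had 3006, 3079 and 8117 reads in PEO1 and 134, 113 and 144 in PEO4. TGM2 fell 23.2-fold there (log2FC -4.55 ± 0.22 SE, limma FDR 6.45e-12) and rose in PEA2 (1.41, limma FDR 1.43e-05). In CP70 its value of 0.84 passed (limma FDR 0.00436), but libraries overlapped, with 11 pooled reads in A2780 and 31 in CP70. The spread in that test is shared by all lines, so it may understate the counting error of so few reads. MEIS2 fell in PEO4 (-3.30, limma FDR 6.21e-07), while PLAAT4, an acyltransferase gene also known as RARRES3, rose from 4, 5 and 10 reads to 62, 37 and 59 (3.49, limma FDR 2.7e-05). RARRES2, which encodes the chemokine-like chemerin, fell in PEA2 from 53, 72 and 62 reads to 2, 5 and 10 (-4.27, limma FDR 6.18e-07). RARRES2 rose in PEO4 from 19, 22 and 47 to 117, 106 and 90 (2.39, limma FDR 0.000891). The responsive genes of the PEO pair therefore moved both ways while CRABP2, RARA and RARG were all higher in PEO4.

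The aldehyde dehydrogenases outside the ALDH1A group include enzymes that act on other aldehydes, from fats, amino acids and folates. Among 13 in the table, 2 rose and 5 fell of 12 in the A2780 pair, 2 rose and 8 fell of 12 in the PEA pair, and 5 rose and 3 fell of 13 in the PEO pair. ALDH1L2, a mitochondrial folate enzyme, fell in CP70 (log2FC -2.68, limma FDR 2.45e-06) and in PEO4 (-2.33, limma FDR 1.69e-05). ALDH2, the mitochondrial enzyme that clears acetaldehyde, fell in PEA2 from 103, 106 and 147 reads to 25, 51 and 24 (-2.58, limma FDR 1.76e-10). ALDH4A1, an enzyme of proline breakdown, fell in the same line (-2.32, limma FDR 2.68e-06). The fall of 5 genes in the A2780 pair was not steady, since it was 2 without A2780 replicate 1 or replicate 3 and 3 without any 1 of the CP70 replicates. The 2 that rose in the PEA pair became 1 without PEA1 replicate 2, PEA1 replicate 3, PEA2 replicate 1 or PEA2 replicate 2.

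The genes most like each member over the 6 line means were ranked by Pearson correlation among 5966 genes that spanned at least 2 on the log2 scale. The 6 points share their libraries and no p is given. For ALDH1A1 they were GCG (r = 0.995), POSTN (0.994), NXPH3 (0.993), SCG2 (0.993) and LRRN3 (0.992). Each of these was high in CP70 and low in the other 5 lines, and POSTN, a matrix protein gene, had a mean log2 CPM of 8.90 in CP70. ALDH1A1 was itself chosen for its high level in CP70, so any gene high only in that line will have a high r with it. The ranking for ALDH1A1 is therefore a description of CP70 and not a separate result. CRABP2 was most like ST8SIA6 (0.942), C12orf57 (0.935), PITX1 (0.926), PEX6 (0.926) and SPHK1 (0.915). The sphingosine kinase gene SPHK1 had means of 2.63 and 5.35 in A2780 and CP70, 2.19 and 3.98 in PEA1 and PEA2, and 4.18 and 6.19 in PEO1 and PEO4.

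For ALDH1A3 the closest were OTUD1 (0.992), JUP (0.990), GPRC5A (0.990), BID (0.990) and RNF24 (0.988). JUP, a junction protein of epithelia, had means of 9.02 in PEO1 and 9.35 in PEA2 against 4.47 in A2780. RARA was most like AHDC1 (0.992) and KLLN (0.991), both highest in PEO4. RARB was most like PROB1 (0.991) and SYN2 (0.989), which were at or near the floor in A2780, PEA1 and PEA2. RARRES1 was most like a gene listed without a symbol (0.983) and then KIAA0226 (0.973) and RASIP1 (0.967). Among the members themselves, CRABP2 and RARA had an r of 0.899 over the 6 line means. It was 0.869 for RARA and RARG, 0.801 for CRABP2 and RARG, and -0.502 for ALDH1A1 and ALDH1A3. The RARA mean was 6.88 in PEO4 and 4.39 to 4.83 in the other lines, and CRABP2 and RARG were also highest in PEO4. The r values of RARA with these genes thus rest largely on PEO4. ALDH1A1 was at or near the floor in every line but CP70, so its r with ALDH1A3 rests largely on CP70.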

How the data were processed

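RNA was measured in 18 strand-specific, ribosomal RNA-depleted libraries, 3 per line. The authors aligned reads to hg19 (the submitters' processing notes name Bowtie2), assigned them to known genes with featureCounts, and normalized with limma. The deposited values are log2 CPM of 12853 genes, after adding 0.5 reads to a count. Versions, the strand setting and the gene filter are not given in the sources used here. Whole reads were recovered from 100% of values (tolerance 0.01), which gave the depths, 1344098 to 7067336 reads. The 3 libraries of each line differed by more than counting noise (chi-square per degree of freedom 1.74 to 13.5).

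The deposited log2 values were fitted with limma 3.58.1 (R 4.3.3, variance trend), in 1 fit of 18 libraries with a mean per line. FDR is Benjamini-Hochberg over 12853 genes, a change is an FDR below 0.05, and the study's call adds |log2FC| above 2. The ± of a log2FC is its standard error, from a spread per gene shared by the 6 lines, without weights for depth. It can be too small where a line held few reads. Members with at most 3 reads per library in both lines of a pair were left out of the counts within that pair, and of the differences between pairs only where both pairs were so low, a choice made after the values were seen. Where 1 line held at most 3 reads per library, folds are ratios of pooled reads with exact intervals. Intervals cover counting error only. Members and lists were chosen with earlier results of these data known. Members were all named. List genes were named at |log2FC| above 2 with an FDR below 0.05, at most 3 per list and pair, plus the 5 genes most like a member. Some list genes that met this rule are not reported here. Gene spans are from a GRCh37 annotation and promoters from RefSeq GRCh38.p14, without conversion; 58 of 77 genes had a promoter window. The table lists BCO1 and PLAAT4 under older symbols. Calculations were tested on simulated data, with changes placed only in genes above a set mean CPM. That test does not cover genes with few reads in a line. The alternatives were each pair alone, a low-value filter, quantile normalization, a replicate block, no trend, 2 reads added, voom weights, plain library sizes, |log2FC| above 1, and each library left out.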

Additional observations from a re-analysis of the deposited data

Results flagged for a closer look

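These results stand out because the change between the resistant and sensitive line differed between pairs, by the limma interaction at an FDR below 0.05. ALDH1A3 differed in all comparisons of pairs, by 3.17 for the PEA minus the A2780 pair (FDR 0.00123), -5.62 for the PEO minus the A2780 pair (3.75e-06) and -8.78 for the PEO minus the PEA pair (6.49e-09). RARA differed by 2.25 for the PEO minus the A2780 pair (7.08e-07) and by 1.66 for the PEO minus the PEA pair (2.13e-05). RARG differed by 0.76 for the PEO minus the A2780 pair (0.00995).

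RARB differed by -5.99 for the PEO minus the A2780 pair (FDR 5.97e-07) and by -6.46 for the PEA minus the A2780 pair (1.53e-07). Since RARB had at most 1 read per library in PEA1 and PEA2 and at most 2 in A2780, the size of these values depends on the reads added. RARRES1 differed by -2.64 for the PEO minus the A2780 pair (0.0101), -4.89 for the PEO minus the PEA pair (2.99e-05) and 2.25 for the PEA minus the A2780 pair (0.0211). The last of these did not pass with 2 reads added (1.15, limma FDR 0.0583), without A2780 replicate 2 (1.78, limma FDR 0.0687) or without PEA1 replicate 3 (1.88, limma FDR 0.0597). RARA for the PEA minus the A2780 pair (0.59, limma FDR 0.0620) did not pass, but it passed in 4 of 12 fits that left out 1 library, those without A2780 replicate 3, PEA1 replicate 1, PEA1 replicate 3 or PEA2 replicate 2 (limma FDR down to 0.0253). RARG for the PEO minus the PEA pair (0.32, limma FDR 0.234) did not pass, but did with plain library sizes (0.59, limma FDR 0.0314) and without PEA2 replicate 1 (0.52, limma FDR 0.0381). RARG for the PEA minus the A2780 pair (0.43, limma FDR 0.112) passed without PEA2 replicate 3 (0.61, limma FDR 0.0227).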

How the results depend on the processing

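No result that passed its test changed direction under the alternatives run. In the PEA pair, the count of members that changed was 3 and became 1 with 2 reads added to each count, where RARA (FDR 0.0570) and RARRES1 (0.127) no longer passed. The count of members called there with |log2FC| above 2 was 1 and became 2 with |log2FC| above 1. Over the fits that left out 1 library it ranged from 1 to 2, and was 2 without PEA1 replicate 1 or PEA2 replicate 1. Of the other values that answer a comparison, 224 kept their side of the threshold or stayed within 1.5 times. Plain library sizes moved the median of all genes in the PEA pair by -0.24 and quantile normalization by -0.11. With the former, 2 receptor partners rose and 5 fell there in place of 4 and 3. The cause was not tested. The replicate numbers did not pair the libraries: correlations of same-numbered deviations over 6426 genes ran from -0.184 to 0.220. A replicate block left 2, 2 and 4 members changed in the A2780, PEA and PEO pairs, and took RARA in the PEA pair to an FDR of 0.0543. Depth limits ALDH1A1 and RARB in the PEA pair and RARRES1 outside PEO1.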
